A study of Mus musculus with 48 samples.

Results

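Cytochrome P450 enzymes of the CYP1, CYP2 and CYP3 families carry out the first oxidation of drugs, dietary compounds and steroids, mainly in hepatocytes, and 10 mouse genes of this system were followed through the arrays. The members were the enzyme genes *Cyp1a1*, *Cyp1a2*, *Cyp2a5*, *Cyp2b10*, *Cyp2c29*, *Cyp2e1* and *Cyp3a11*, the xenobiotic-sensing nuclear receptor genes *Nr1i2* (the pregnane X receptor, PXR) and *Nr1i3* (the constitutive androstane receptor, CAR), and *Por*, the reductase that passes electrons to every microsomal P450. Every probe whose transcript accession mapped to a member symbol was taken, which gave 11 of 41174 probes and 10 of 18434 named genes. *Cyp1a2* had 2 probes and the other members 1 each. The members were chosen by their log2 ratios in single mice of these arrays, so their levels and differences between diets are given as a description.

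The mice were C57/BL6 offspring aged 12 weeks. Dams were fed diet H, sufficient in selenium and folate, or diet L, deficient in both, and the pups were then given diet H or diet L from weaning. Group HH had diet H throughout, HL changed from H to L at weaning, LH changed from L to H, and LL had diet L throughout. Per the study's methods both diets were high in fat, the offspring were male, and food was withheld and given back before tissue collection. The whole colon was used. Diet L was made with a mineral mix without selenium and a vitamin mix without folate, but some sodium selenite and folic acid were added to it. The methods call diet L marginally deficient, with both nutrients below the recommended requirements, and diet H supplemented, with both above them. The diets also differed in food dye (a yellow dye in L and a red dye in H). RNA of each liver or colon was labelled with Cy3 and hybridised with a Cy5-labelled reference common to all 48 arrays. The series design describes the reference as RNA of whole pregnant mice and foetuses, whereas the methods describe a pool of intestinal and liver RNA, so a level is given only as the log2 ratio of mouse over reference (the log2 ratio) and is compared between mice for the same probe. The livers were those of 5 mice in HH and 6 in each of HL, LH and LL, and the colons those of 6 mice in every group. Nothing in the labels ties a liver to the colon of the same mouse, or says which mice shared a litter.

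One HH liver (replicate 3) was on 2 arrays, which were averaged. Their deviations from the HH mean correlated over all probes with r = 0.805, against at most 0.261 for other pairs of HH arrays, and the member probes differed between them by 0.47 for *Cyp1a1*, 0.24 and 0.12 for the probes of *Cyp1a2* and 0.05 or less for the rest. The share of spots above background in Cy3 was 55.1% to 66% for liver and 66.8% to 73.7% for colon. No member probe was saturated. All 11 member probes were well above background in Cy3 on all 24 liver arrays. In colon, *Cyp1a1* was well above background on 16 of 24 arrays and *Cyp2b10* on 20 of 24, and the other members on all 24. The tissue labels held: the 3 measured hepatocyte genes (*Alb*, *Apoa1* and *Ttr*) had a mean log2 ratio between 1.2 and 1.97 in livers and between -4.38 and -3.74 in colons, and the 7 genes of colon epithelium between -4.17 and -3.47 in livers and between 0.3 and 1.01 in colons. *Xist*, the RNA made from the inactive X chromosome of females, was more than 2 log2 units above the tissue median in 2 livers (HL replicate 2 and LL replicate 6) and 6 colons (HH replicates 1 and 5, HL replicate 5, LL replicates 1, 3 and 5). In HL liver replicate 2 the Y-linked *Eif2s3y* was not well above background, and in LL liver replicate 6 it was. Among these colons its log2 Cy3 signal was 6.06 in HL replicate 5, 7.21 in LL replicate 1 and 6.02 in LL replicate 3, and 10.09 or more in the other 3. Because whole tissue was measured, fewer cells of a type and less RNA per cell cannot be told apart.

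The P450 genes answer to different sensors. The aryl hydrocarbon receptor (AHR) binds planar aromatic ligands and switches on *Cyp1a1* and *Cyp1a2*, CAR is best known for inducing *Cyp2b10*, and PXR for inducing *Cyp3a11*, with *Cyp2c29* and *Por* among genes that both can induce. *Cyp2e1*, which oxidises ethanol and other small molecules, and *Cyp2a5*, which oxidises coumarin and nicotine, are largely governed in other ways, through hepatocyte transcription factors, mRNA stability and, for *Cyp2a5*, the circadian PAR bZip factors. *Cyp1a2*, *Cyp2e1* and *Cyp2c29* are expressed most in hepatocytes around the central vein.

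*Cyp1a1* and *Cyp1a2* lie next to each other on chromosome 9 and are transcribed in opposite directions. Their promoters are shown because the highest livers for both genes were the same mice. The RefSeq promoters (GRCm38.p6, 250 bases before and 50 after the start) were chr9:57697363-57697662, plus strand for *Cyp1a1* and chr9:57683606-57683905, minus strand for *Cyp1a2*. Capitals mark the core GCGTG of the AHR element, searched on both strands (CACGC on the other), and the TATA box TATAAA.
Cyp1a1: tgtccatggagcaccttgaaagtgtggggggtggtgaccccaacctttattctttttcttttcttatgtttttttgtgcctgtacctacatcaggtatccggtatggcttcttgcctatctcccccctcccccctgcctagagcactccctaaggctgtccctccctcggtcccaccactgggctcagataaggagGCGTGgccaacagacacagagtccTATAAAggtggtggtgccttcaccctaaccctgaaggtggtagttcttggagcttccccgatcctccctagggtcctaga
Cyp1a2: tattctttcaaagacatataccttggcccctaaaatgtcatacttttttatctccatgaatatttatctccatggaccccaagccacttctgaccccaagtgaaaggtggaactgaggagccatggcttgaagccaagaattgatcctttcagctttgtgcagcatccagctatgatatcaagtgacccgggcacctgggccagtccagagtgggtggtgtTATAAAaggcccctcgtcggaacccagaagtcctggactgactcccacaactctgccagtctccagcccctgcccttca
The *Cyp1a1* window held 1 AHR core, which began 54 bases before the start, and a TATA box 30 bases before it. The *Cyp1a2* window held a TATA box 29 bases before the start and no AHR core. GCGTG was present in 32.4% of the 32851 promoters of the same length and TATAAA in 13.6%.

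*Cyp1a1* was the member with the widest spread. In HH liver its log2 ratio was 2.87, -2.74, -3.54, 3.64 and -2.45 in replicates 1 to 5. In HL it ran from -3.14 (median -2.77) to -0.81, in LH from -3.18 (median -2.8) to -2.63 and in LL from -3.62 (median -2.8) to -1.76. HH replicates 1 and 4 therefore stood far above all other livers, next came HL replicate 6 at -0.81, HL replicate 1 at -1.69 and LL replicate 2 at -1.76, and the remaining HH livers overlapped every other group. From the lowest to the highest liver the range was 153-fold. The LH, HL and LL means lay below the HH mean by 2.43, 1.89 and 2.26 (each SE 0.93), while the group medians lay between -2.8 and -2.45. The SE pools the spread of the 4 groups, whereas the SD was 3.41 in HH and between 0.25 and 0.9 in the others. It is therefore too small for these differences from HH. Without HH replicate 4 these differences were -1.41, -0.87 and -1.24. Within slides, each of which held 1 array of each group, LH lay below HH on 4 of 6 slides, with differences from -6.8 to 1.09. Slides 3 and 6 share HH replicate 3, here and in the slide counts that follow.

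The colons showed the same kind of split. In HH colon *Cyp1a1* was at 0.62, 3.1 and 2.14 in replicates 1, 4 and 6 and between -4.53 and -2.64 in the others. In HL it ran from -4.29 (median -3.54) to -0.13, in LH from -4.43 (median -4.16) to -3.48 and in LL from -4.15 (median -3.39) to 2.55. The high colons were 3 of HH, replicate 6 of LL and, lower, replicate 6 of HL, and no LH colon was among them. LH was well above background on 2 of 6 arrays, against 5 of 6 in HH and HL and 4 of 6 in LL. The LH mean lay 3.25 (SE 1.16) below the HH mean, -2.46 without HH replicate 4, and the HL and LL means 2.04 and 1.58 below it. Here too the SE pools groups of unlike spread (SD 3.21 in HH and 0.33 in LH) and is too small. Because 8 of the 24 colons, 4 of them in LH, were not well above background, the sizes of these differences are uncertain, and with Agilent's processed signals LH minus HH was -5.09.

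*Cyp1a2*, the CYP1 enzyme that livers express without an inducer, had a narrower range. Its log2 ratio in HH liver was 3.12, 1.46, 0.47, 3.1 and 1.45. HL ran from 1.07 (median 1.65) to 2.76, LH from 1.31 (median 1.88) to 2.33 and LL from 0.68 (median 1.53) to 2.51. HH replicates 1 and 4, the 2 livers with high *Cyp1a1*, were the 2 highest of all 23, and HH replicate 3 was the lowest, so HH covered the whole range of the other groups. The means were 1.92 ± 1.16 (SD, n = 5) in HH, 1.84 ± 0.73 (n = 6) in HL, 1.8 ± 0.38 in LH and 1.59 ± 0.69 in LL, and neighbours in this order differed by less than their spread. The second probe of *Cyp1a2* differed from the first by at most 0.35 in any liver. In colon the 2 probes were low in every mouse (between -3.41 and -2.58 and between -3.21 and -2.39), a 1.78-fold and a 1.76-fold range. Across the 24 colons they had r = -0.59 and differed by up to 0.76, so the order of the colons for *Cyp1a2* is not read.

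**Figure D1:**
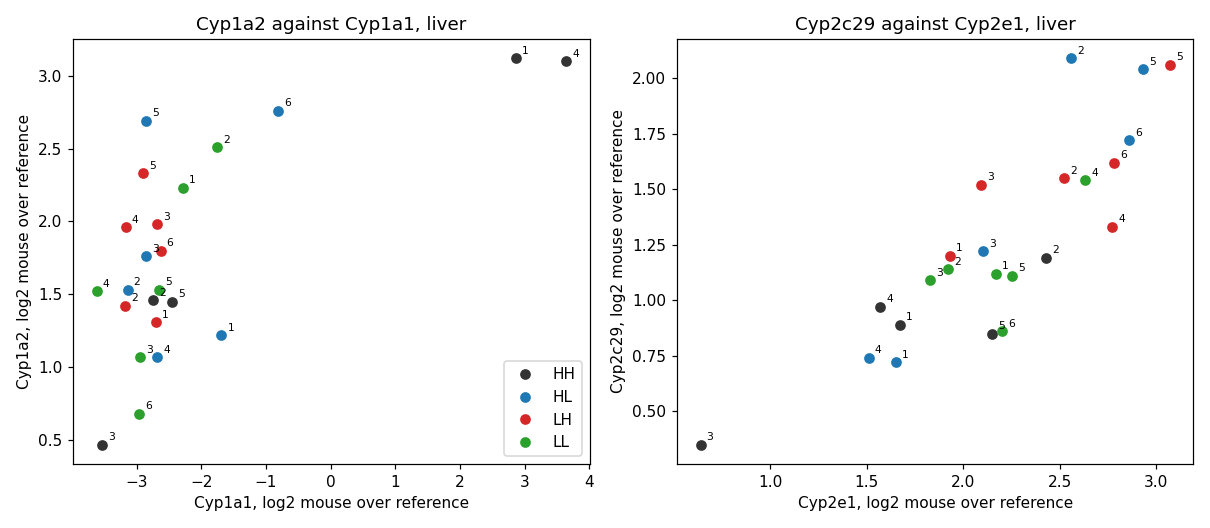
Log2 ratio of *Cyp1a2* against *Cyp1a1* (left) and of *Cyp2c29* against *Cyp2e1* (right) in the 23 livers, each point 1 mouse with its replicate number and coloured by group. HH 1 and HH 4 lie apart at the top right for the CYP1A genes, and *Cyp2c29* and *Cyp2e1* fall along 1 line with HH 3 at its lower end.

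Genes that answer to AHR were then read in the same mice, a list put together after the *Cyp1a1* values were seen. In colon *Ahrr*, the AHR repressor, was at 1.65 in HL replicate 6, 1.56 in LL replicate 6, 1.23 in HH replicate 6 and 1 in HH replicate 4, and the next were LL replicate 5 at 0.96 and HL replicate 4 at 0.61. The 4 highest colons for *Ahrr* were thus 4 of the 5 highest for *Cyp1a1*, while HH replicate 1 was at 0.19. The other genes of the list are not given mouse by mouse for colon, so nothing is read from *Ahrr* alone. In liver *Ahrr* was not well above background in either of the 2 HH livers with high *Cyp1a1*. *Nqo1* was at -0.69 and -0.5 in those livers, within the range of the other livers (-1.31 to -0.18), and *Tiparp* at -1.54 and -1.27, within -2.44 to -1.15. *Cyp1b1* was at -0.67 and -0.6, within -1.12 to -0.1. *Ahr* itself was at 1.8 and 1.81, among livers from 0.39 to 2.2. Of the 6 measured genes of this list 2 lay above 0 for HH *vs.* LH in liver (median -0.23) and 2 in colon (median -0.1), against 47.2% and 52.2% of all probes.

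**Figure D2:**
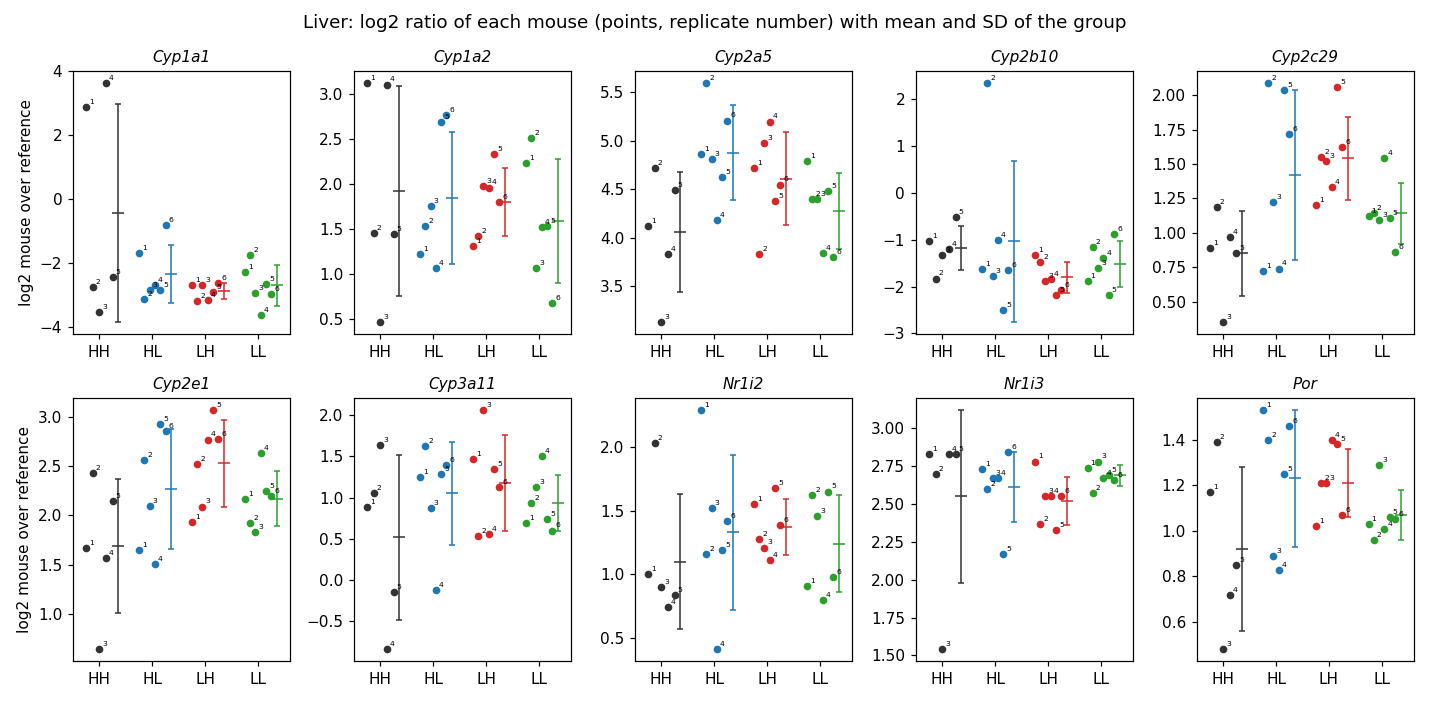
Log2 ratio of mouse over reference (vertical axis) of the 10 members in liver, by group. Points are mice with their replicate number, and the bar beside each group is its mean ± SD (n = 5 in HH, 6 elsewhere). *Cyp1a1* is high in HH 1 and HH 4, *Cyp2b10* in HL 2, and HH 3 is the lowest liver for 6 of the 10 genes.

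Among the CAR genes, *Nr1i3* itself varied little in liver apart from 1 mouse. It was at 2.83, 2.7, 1.54, 2.83 and 2.83 in HH, between 2.17 and 2.84 (median 2.67) in HL, between 2.33 and 2.78 (median 2.55) in LH and between 2.57 and 2.78 (median 2.68) in LL. HH replicate 3 was alone below 2, and its 2 arrays gave 1.56 and 1.51. The LH, HL and LL means differed from the HH mean by -0.03, 0.07 and 0.14 (SE 0.17), and by -0.28, -0.19 and -0.11 when HH replicate 3 was left out, so that the sign of the HL and LL differences rested on that mouse.

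*Cyp2b10*, the enzyme gene most used as a readout of CAR, was low in nearly all livers. It was at -1.03, -1.83, -1.32, -1.2 and -0.53 in HH, between -2.5 and 2.34 (median -1.63) in HL, between -2.18 and -1.33 (median -1.87) in LH and between -2.19 and -0.89 (median -1.51) in LL. HL replicate 2, at 2.34, was the only liver above -0.53. This was the liver with *Xist* and without *Eif2s3y*. The HL mean lay 0.15 (SE 0.53) above the HH mean with this mouse and 0.53 below it without, and LH and LL lay 0.62 and 0.34 below HH. In the same liver the paralogs *Cyp2b9* and *Cyp2b13*, which are expressed mainly in females, were at 3.46 and 3.47, against at most 1.14 and 0.62 in all other livers. The male-biased *Cyp4a12a* was at -3.52 there and between -1.1 and 0.66 in all other livers. The 1.14 and 0.62 were in LL replicate 6, the other liver with *Xist*, where *Cyp2b10* was at -0.89, the highest of LL. Over the 9 measured genes of the female-biased list the mean log2 ratio was 2.48 in HL replicate 2 and 0.78 in LL replicate 6, and between -0.9 and 0.14 in the others. HL replicate 2 was also the highest liver for *Cyp2a5* (5.6) and *Cyp2c29* (2.09). Without both livers with *Xist*, HL minus HH was 0.68 for *Cyp2a5* and 0.44 for *Cyp2c29*, against 0.82 and 0.57 with them.

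**Figure D3:**
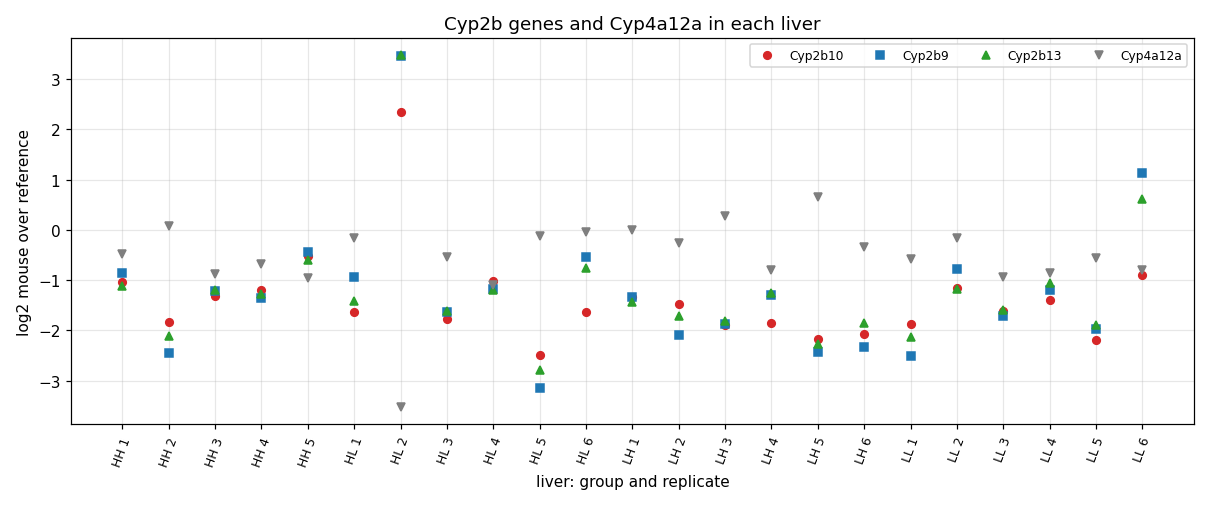
Log2 ratio (vertical axis) of *Cyp2b10*, *Cyp2b9*, *Cyp2b13* and *Cyp4a12a* in each of the 23 livers (horizontal axis, group and replicate). In HL 2 the *Cyp2b* genes are at their highest and *Cyp4a12a* at its lowest, and in LL 6 *Cyp2b9* and *Cyp2b13* are the second highest.

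Of the PXR genes, *Nr1i2* was at 1, 2.03, 0.9, 0.74 and 0.84 in HH liver. It ran from 0.41 to 2.29 (median 1.3) in HL, from 1.11 to 1.68 (median 1.34) in LH and from 0.8 to 1.65 (median 1.22) in LL. HH replicate 2 and HL replicate 1 were the only livers above 2, and the groups overlapped. The LH, HL and LL means lay 0.27, 0.23 and 0.14 (SE 0.26) above the HH mean. Without HH replicate 2 these *Nr1i2* differences were 0.5, 0.46 and 0.37, without HL replicate 1 that of HL was 0.04, and without HH replicate 4 that of LL was 0.05. *Cyp3a11*, the main CYP3A of mouse liver, was at 0.89, 1.06, 1.64, -0.84 and -0.14 in HH, between -0.12 and 1.62 (median 1.26) in HL, between 0.53 and 2.06 (median 1.24) in LH and between 0.6 and 1.5 (median 0.84) in LL. The 3 livers below 0 were HH replicates 4 and 5 and HL replicate 4. The LH mean lay 0.66 (SE 0.37) above the HH mean, 0.94 without HH replicate 3 and 0.32 without HH replicate 4, and HL and LL lay 0.52 and 0.41 above it, 0.8 and 0.69 without HH replicate 3 and 0.18 and 0.07 without HH replicate 4.

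*Cyp2c29* and *Cyp2e1* had a higher liver mean in LH than in HH, and their promoters are shown because the 2 genes varied together across mice. They were chr19:39286835-39287134, plus strand and chr7:140763569-140763868, plus strand (GRCm38.p6), with the TATA box in capitals, 19 and 31 bases before the start, and no AHR core.
Cyp2c29: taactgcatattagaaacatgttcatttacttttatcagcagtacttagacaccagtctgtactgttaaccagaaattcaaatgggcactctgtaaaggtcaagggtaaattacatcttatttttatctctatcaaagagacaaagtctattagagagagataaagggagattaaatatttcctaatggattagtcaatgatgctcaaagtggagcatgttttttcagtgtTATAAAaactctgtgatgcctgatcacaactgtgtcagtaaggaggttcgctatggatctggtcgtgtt
Cyp2e1: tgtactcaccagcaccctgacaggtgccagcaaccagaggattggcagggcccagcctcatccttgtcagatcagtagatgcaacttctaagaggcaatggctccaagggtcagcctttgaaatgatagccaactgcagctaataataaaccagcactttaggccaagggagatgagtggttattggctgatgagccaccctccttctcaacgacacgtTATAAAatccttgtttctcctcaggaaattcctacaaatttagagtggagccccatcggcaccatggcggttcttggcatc
TATAAA was present in the promoters of 6 members, *Cyp1a1*, *Cyp1a2*, *Cyp2a5*, *Cyp2c29*, *Cyp2e1* and *Cyp3a11* (there 234 bases before the start), against 13.6% of all promoters, and in none of the windows of *Cyp2b10*, *Nr1i2*, *Nr1i3* and *Por*. GCGTG was found in *Cyp1a1*, *Cyp2b10* and *Por*. The D-box TTATGNAA, a site of the PAR bZip factors, was found in *Cyp2a5* and *Cyp2b10* (3.38% of all promoters), and the nuclear receptor hexamer AGGTCA in *Cyp2a5*, *Cyp2c29* and *Cyp3a11* (16.3%).

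*Cyp2c29*, an epoxygenase of arachidonic acid, was at 0.89, 1.19, 0.35, 0.97 and 0.85 in HH liver. LH ran from 1.2 (median 1.53) to 2.06, HL from 0.72 (median 1.47) to 2.09 and LL from 0.86 (median 1.11) to 1.54. Every LH liver was above every HH liver, the lowest LH (1.2) just above the highest HH (1.19), and HL and LL overlapped HH. Groups HH and LH did not overlap at 1.54% of all probes. The LH mean lay 0.7 (SE 0.22) above the HH mean, a 1.62-fold ratio. That LH lay above HH on 6 of 6 slides follows from the lack of overlap and adds nothing to it. Without HH replicate 3 the LH difference was 0.57. The HL mean lay 0.57 (SE 0.22) and the LL mean 0.29 (SE 0.22) above the HH mean, on 4 of 6 and 5 of 6 slides. HL was itself divided, with replicates 2, 5 and 6 between 1.72 and 2.09 and replicates 1, 3 and 4 between 0.72 and 1.22.

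*Cyp2e1* was at 1.67, 2.43, 0.64, 1.57 and 2.15 in HH liver, between 1.93 and 3.07 (median 2.64) in LH, between 1.51 and 2.93 (median 2.33) in HL and between 1.83 and 2.63 (median 2.19) in LL. The groups overlapped, and HH replicate 3 was again the lowest of all livers. The LH mean lay 0.83 (SE 0.29) above the HH mean, a 1.78-fold ratio, with LH above HH on 6 of 6 slides, by 0.09 to 2.13. HL lay above HH on 4 of 6 slides and LL on 5 of 6. The LH difference was 0.57 without HH replicate 3 and 1.02 without HH replicate 2. HL and LL lay 0.58 and 0.47 above HH, and 0.31 and 0.21 without HH replicate 3.

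*Cyp2a5* was at 4.12, 4.72, 3.13, 3.83 and 4.49 in HH liver, between 4.18 and 5.6 (median 4.83) in HL, between 3.83 and 5.2 (median 4.64) in LH and between 3.8 and 4.79 (median 4.4) in LL. HL lay above HH on 6 of 6 slides, with a mean difference of 0.82 (SE 0.28), while LH and LL lay 0.55 and 0.23 above HH, each on 4 of 6 slides. Without HH replicate 3 the HL, LH and LL differences of *Cyp2a5* were 0.59, 0.32 and 0. *Por*, which all of these enzymes need, was at 1.17, 1.39, 0.48, 0.72 and 0.85 in HH, between 0.83 and 1.53 (median 1.32) in HL, between 1.02 and 1.4 (median 1.21) in LH and between 0.96 and 1.29 (median 1.04) in LL. Its LH, HL and LL means lay 0.29, 0.3 and 0.14 (SE 0.14) above HH. HL lay above HH on 6 of 6 slides, by 0.01 to 0.99, and LH and LL each on 4 of 6. Without HH replicate 3 these differences were 0.18, 0.19 and 0.03. Here too HH overlapped each group and HH replicate 3 was the lowest liver. For *Cyp2e1*, *Cyp2a5* and *Por* this lowest liver was the HH array on slides 3 and 6, so every group lay above HH there.

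Of the 10 members, 6 (*Cyp2a5*, *Cyp2c29*, *Cyp2e1*, *Cyp3a11*, *Nr1i2* and *Por*) had their lowest liver mean in HH. For *Cyp2c29*, *Cyp2e1*, *Cyp3a11* and *Nr1i2* the order was LH, HL, LL and HH, and for *Cyp2a5* and *Por* it was HL, LH, LL and HH. In these 6 genes the 2 groups whose diet changed at weaning were thus above the 2 groups whose diet did not, although neighbours in each order differed by less than their spread. The share of all probes with such an order was not counted, so nothing is read from the number of members with it. As the interaction of dam and offspring diet, (LL minus LH) minus (HL minus HH), the log2 values were -0.98 (SE 0.31) for *Cyp2c29*, -1.15 (SE 0.38) for *Cyp2a5*, -0.94 (SE 0.4) for *Cyp2e1*, -0.77 (SE 0.51) for *Cyp3a11*, -0.45 (SE 0.2) for *Por* and -0.36 (SE 0.35) for *Nr1i2*. That of *Cyp3a11* was -0.43 without HH replicate 4, and that of *Nr1i2* -0.17 without HL replicate 1 and -0.6 without HH replicate 2. Without HH replicate 3 the interaction was -0.92 for *Cyp2a5*, -0.68 for *Cyp2e1* and -0.34 for *Por*, and -1.05 for *Cyp3a11*. For *Cyp1a1* the interaction was 2.07 (SE 1.28, too small for groups of such unlike spread), and 1.05 without HH replicate 4. It was -0.13 (SE 0.59) for *Cyp1a2*, 0.13 (SE 0.74) for *Cyp2b10* and 0.1 (SE 0.24) for *Nr1i3*. The 6 genes were grouped by an order with LH and HL on top, so the negative sign of their interaction follows from it. Averaged over offspring diets, the dam diet difference (L minus H) of the 6 genes lowest in HH lay between -0.02 and 0.36, and the offspring diet difference between 0.05 and 0.25. The dam diet difference was -1.4 (SE 0.64, again too small) for *Cyp1a1*, -0.55 for *Cyp2b10*, -0.19 for *Cyp1a2* and 0.02 for *Nr1i3*. In that order the offspring diet differences were -0.86, 0.21, -0.14 and 0.11.

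None of the 11 member probes passed FDR under 0.05 with a fold over 1.5 (limma, Benjamini-Hochberg over all probes) in liver for HH *vs.* LH, HH *vs.* HL, HH *vs.* LL, dam diet, offspring diet or their interaction, where 0% of 41171 probes passed. At an unadjusted p under 0.05 the member probes numbered 3 for HH *vs.* LH (12% of all probes), 3 for HH *vs.* HL (4.38%), 1 for HH *vs.* LL (3.45%), 1 for dam diet (4.14%), 0 for offspring diet (1.37%) and 4 for the interaction (11.4%), counts from which nothing is read because these ratios chose the members. The 3 comparisons with HH share the HH mice. The median difference of the 10 genes was 0.28 for HH *vs.* LH, 0.27 for HH *vs.* HL and 0.14 for HH *vs.* LL, against -0.01 over all probes in each.

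**Figure D4:**
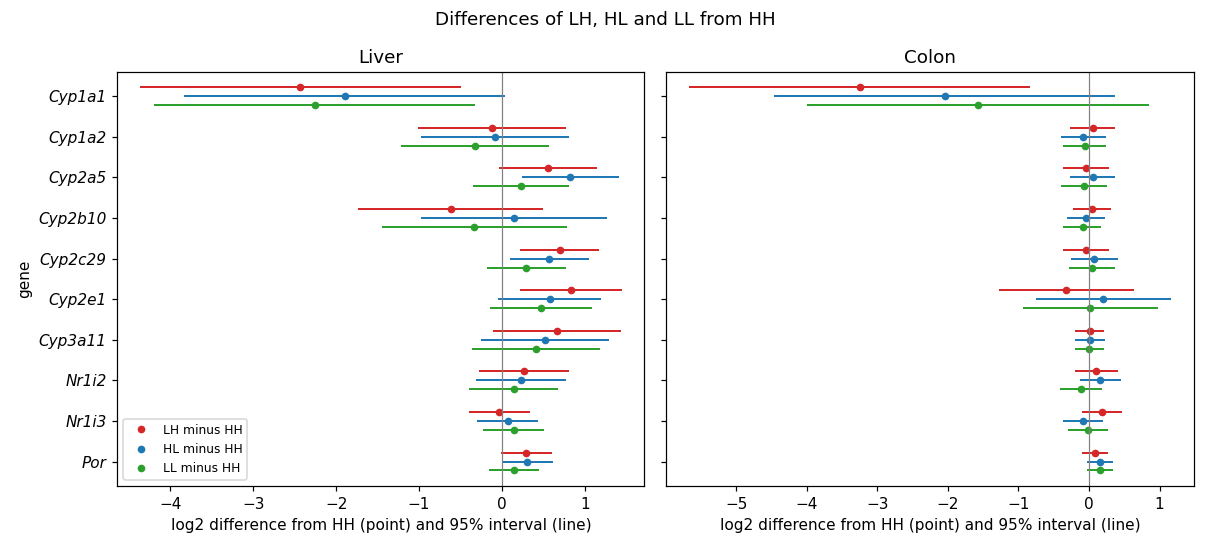
Log2 differences of LH (red), HL (blue) and LL (green) from HH for the 10 members in liver (left) and colon (right), with lines for the 95% interval of the limma fit. *Cyp2c29* and *Cyp2e1* lie to the right of 0 in liver, *Cyp1a1* lies far to the left with wide intervals in both tissues, and the other members lie near 0 in colon. The fit pools the spread of the 4 groups of a tissue, so the *Cyp1a1* intervals are still too narrow.

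HH replicate 3 was the lowest of 23 livers for 6 of the 10 members (*Cyp1a2*, *Cyp2a5*, *Cyp2c29*, *Cyp2e1*, *Nr1i3* and *Por*). It was the second lowest for *Cyp1a1*, rank 19 from the highest for *Nr1i2*, rank 8 for *Cyp2b10* and rank 2 for *Cyp3a11*. In this liver the paralogs *Cyp2c37* and *Cyp2c54* were at 0.13 and 0.34, against at least 1.78 and 2.03 in all others. The male-biased steroid enzymes *Hsd3b5* and *Cyp7b1* were at -3.34 and -1.66, the pericentral *Glul* at 0.16 and the acute phase gene *Lcn2* at 2.13, its highest. The mean log2 ratio over the 8 pericentral genes was 0.52 there, against 0.91 to 1.78 in all other livers, that over the 8 acute phase genes 1.18 against 0.03 to 0.81, and that over the 5 male-biased genes -0.5, lower only in HL replicate 2 at -1.55. *Eif2s3y* was well above background in it. The part of these genes in the member values was not tested.

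Across the 23 livers, with group means taken off, *Cyp2c29* and *Cyp2e1* had Pearson's r = 0.82 and Spearman's rho = 0.78. Without the 2 livers farthest from the median r was 0.77, without HH replicate 3 it was 0.8, and with slide means also taken off it was 0.79. This was the highest r of the 28 pairs of 8 members. *Cyp1a1* and *Cyp2b10* were left out of the pairs because a few mice stood far from the rest. The next were *Cyp2a5* with *Por* at 0.57, *Nr1i2* with *Por* at 0.55, *Cyp2e1* with *Por* at 0.54 and *Cyp2a5* with *Nr1i3* at 0.53, of which r fell to 0.51, 0.3, 0.29 and 0.26 without the 2 farthest livers. *Nr1i3* and *Cyp2c29* had r = 0.03, and *Nr1i2* and *Cyp3a11* r = 0.37. These values describe the ratios that chose the members and carry no test, and the probes share arrays and a reference.

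The named genes most like a member across the 23 livers, by Pearson's r after group means were taken off and among 12222 genes well above background on all liver arrays, were in several cases paralogs. For *Cyp3a11* they were *Cyp3a16* (0.9), *Cyp3a44* (0.86) and *Eed* (0.8), and for *Cyp2a5* they were *Cyp2a4* (0.9), *Pon1* (0.77) and *Ttc36* (0.76). These paralogs are close in sequence, the probe sequences were not used here, and how far a probe reads its neighbour's transcript was not tested. For *Cyp2c29* the most alike were *Ces1d* (0.85), the pericentral *Rgn* (0.83) and *Hsd11b1* (0.81), and for *Cyp2e1* they were *Cry2* (0.9), *Lrpprc* and *Acsm1* (both 0.89). *Olfr114* (0.83) and *Chad* (0.76) were among the nearest to *Cyp1a2*. *Nr1i2* was nearest to *Slc16a12* (0.83), *Nr1i3* to *Adrm1* (0.84) and *Por* to *Tox* (0.8). These are the highest among 12222 genes, and r is not given without single mice. It can rest on few livers, as for *Nr1i3*, where HH replicate 3 was at 1.54 and the other HH livers between 2.7 and 2.83.

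The rest of the pathway was read through lists of genes, of which none passed the test in any comparison of diets in liver or colon, in either direction. For HH *vs.* LH in liver 47.2% of all probes lay above 0, the share to set beside the counts of this and the next lists. Of the 41 other *Cyp1*, *Cyp2* and *Cyp3* genes measured, 25 lay above 0, with a median difference of 0.15 against -0.01 over all probes. At an unadjusted p under 0.05, 7 of them were higher and 3 lower, against 12% of all probes in either direction. Nothing is read from these counts. Those with the lowest p were *Cyp2c54* at 1.33 (SE 0.32), *Cyp2c37* at 0.91 (SE 0.26) and *Cyp2c39* at 0.52 (SE 0.19). Their adjusted p by limma lay between 0.19 and 0.292. In HH replicate 3 *Cyp2c54* was at 0.34 and *Cyp2c37* at 0.13, the lowest of HH. Differences of list genes are not given without this mouse. Of the 21 genes of conjugation and transport 14 lay above 0, with a median of 0.23, led by the bilirubin-conjugating *Ugt1a1* at 0.95 (SE 0.24), the canalicular exporter *Abcc2* at 0.28 (SE 0.1) and the carboxylesterase *Ces2a* at 0.55 (SE 0.2). Of the 14 regulators 7 lay above 0 (median -0.04), and the lowest p values were those of *Rxra*, the partner of CAR and PXR on DNA, at 0.51 (SE 0.18), *Hnf4a* at 0.26 (SE 0.1) and *Rxrb* at -0.2 (SE 0.11). Of the 8 redox and heme partners 4 lay above 0 (median -0.03), among them *Alas1*, the first enzyme of heme synthesis, at 0.37 (SE 0.2), and *Cyb5b* at 0.24 (SE 0.15), while the heme-degrading *Hmox1* was at -0.52 (SE 0.19).

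Clock output and other liver programmes were read beside these values. Of the 14 measured PAR bZip and clock genes 9 lay above 0 for HH *vs.* LH (median 0.37), with *Tef* at 1.09 (SE 0.36), *Ciart* at 1.57 (SE 0.55) and *Clock* at -0.45 (SE 0.16). *Dbp*, the PAR bZip factor known to act on *Cyp2a5*, was at 0.35, 2.75, -1.04, -0.91 and 1.71 in HH livers and between 0.55 and 2.65 in LH. HH replicates 3 and 4, the lowest HH livers for *Dbp*, were also the lowest HH livers for *Cyp2a5*, at 3.13 and 3.83. HH replicate 3 was the lowest liver for 6 members, and the part of *Dbp* in the *Cyp2a5* values was not tested. Of the acute phase genes 2 of 8 lay above 0 (median -0.3), with *Orm2* at -0.53 (SE 0.13), *Itih4* at 0.3 (SE 0.14) and *Lcn2* at -0.43 (SE 0.35). Of the 9 female-biased genes 3 lay above 0 (median -0.06), with *Hao2* at -0.34, *Cyp3a44* at 0.29 and *Cyp17a1* at -0.28, and of the 5 male-biased genes 4 (median 0.51), with *Hsd3b5* at 1.02 (SE 0.64), *Cyp7b1* at 0.88 (SE 0.49) and *Cyp4a12a* at 0.51 (SE 0.43). HH replicate 3 was at -3.34 for *Hsd3b5* and -1.66 for *Cyp7b1*, the lowest of HH, and these differences are not given without it.

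No marker of the other cell types passed the test between HH and LH livers. The blood list had a median difference of -0.55 (0 of 4 genes above 0), its mean log2 ratio ranging from 0.37 to 0.78 in HH, 0.18 to 0.87 in HL, -0.04 to 0.47 in LH and 0.32 to 0.89 in LL. The medians were -0.42 for stellate cells (0 of 4 above 0, mean log2 ratio -2.13 to -1.16 in HH and -2.44 to -1.93 in LH), -0.33 for Kupffer cells and macrophages (0 of 5, 1.58 to 3.17 and 1.47 to 2.73), -0.07 for cholangiocytes (1 of 4) and 0.06 for endothelium (2 of 3). For the hepatocyte list it was 0.23 (3 of 3), for pericentral genes 0.05 (4 of 8) and for periportal genes 0 (3 of 7). The medians of the colon lists, read in liver, were -0.12 for epithelium (2 of 7), 0.02 for smooth muscle (2 of 4) and 0 for enteric neurons (2 of 3). Every gene of the liver and blood lists was well above background on all liver arrays. The part of cell makeup in the member values was not tested.

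In colon, none of the 11 probes passed the test for any of the 6 comparisons (0% of 41173 probes), and those with an unadjusted p under 0.05 numbered 1 for HH *vs.* LH (3.24% of all probes), 1 for the interaction (1.79%) and 0 for HH *vs.* HL (1.46%), HH *vs.* LL (1.72%), dam diet (2.11%) and offspring diet (2.04%). The probe in question was that of *Cyp1a1*. The LH, HL and LL means of *Por* lay 0.09, 0.15 and 0.15 (SE 0.08) above HH, those of *Nr1i3* differed from HH by 0.18, -0.09 and -0.02 (SE 0.13), and those of *Nr1i2* by 0.1, 0.16 and -0.12 (SE 0.14). For *Cyp2a5*, *Cyp2b10*, *Cyp2c29*, *Cyp3a11* and both probes of *Cyp1a2* every difference from HH lay between -0.09 and 0.09. Those of *Cyp2e1* were wider, with LH, HL and LL differing from HH by -0.32, 0.2 and 0.02 (SE 0.46).

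*Cyp2e1* was the second member with a wide spread in colon. It was between -3.93 and -2.79 (median -3.1) in HH, between -4.31 and -1.59 (median -3.28) in HL, between -4.67 and -3.23 (median -3.44) in LH and between -4.66 and -1.71 (median -3.63) in LL. HL replicate 3 and LL replicates 3 and 4, at -1.59, -1.71 and -1.76, were the 3 highest, all of offspring given diet L after weaning, while the other 9 such colons were at -2.49 or lower. Without LH replicate 2 the LH difference was -0.11, without HL replicate 3 the HL difference was -0.1, and without LL replicate 3, a colon with *Xist*, the LL difference was -0.29. In LL colon replicate 4 the mean log2 ratio over the 5 genes of Kupffer cells and macrophages was 0.48, against -1.97 to -1.55 in all other colons, and that over the 4 blood genes was -0.35, against -2.17 to -1.37. Their part in the *Cyp2e1* value was not tested.

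**Figure D5:**
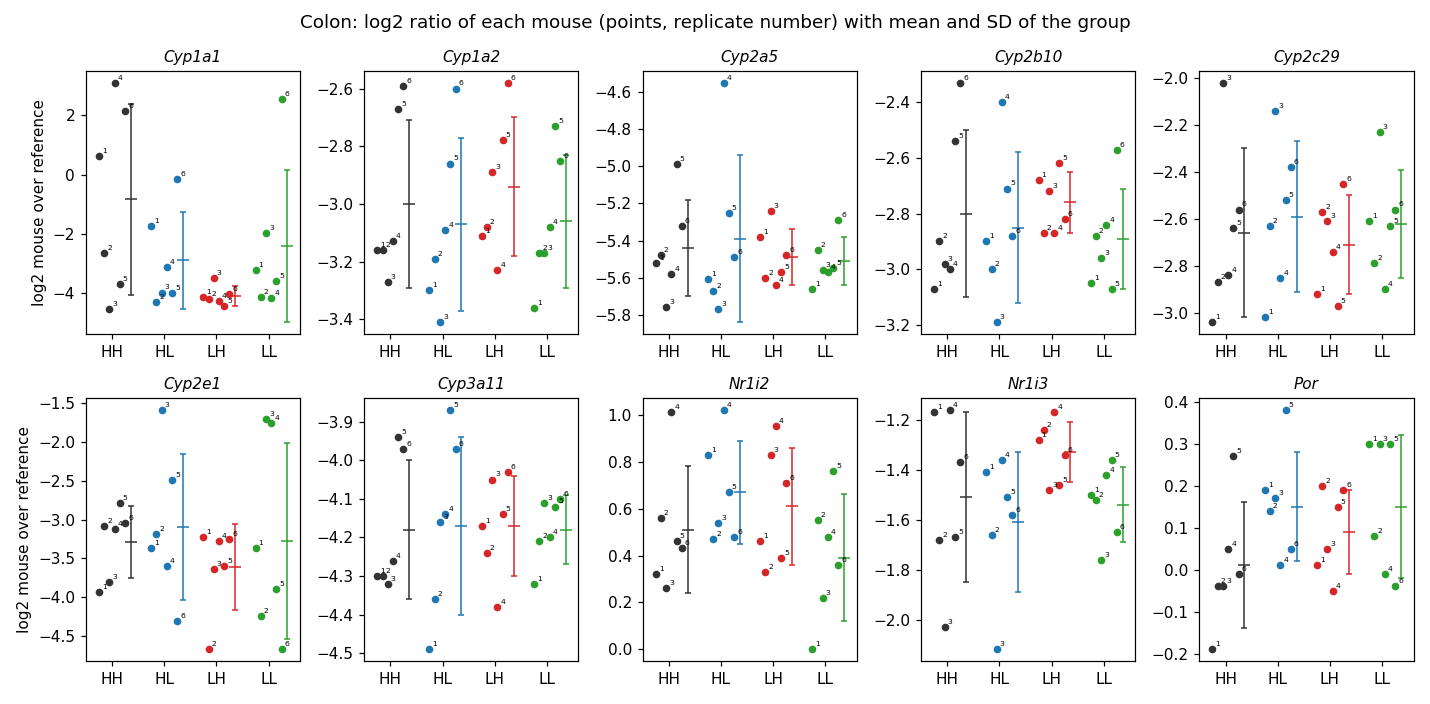
Log2 ratio of mouse over reference (vertical axis) of the 10 members in colon, by group, drawn as for liver (6 mice in each group). *Cyp1a1* is high in HH 1, HH 4, HH 6 and LL 6, *Cyp2e1* in HL 3, LL 3 and LL 4, and for the other genes the 4 groups lie over each other.

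Between the tissues, 10 of the 11 member probes passed FDR under 0.05 with a fold over 1.5, all higher in liver, where 30.3% of all probes passed in either direction and 14.6% as higher in liver. The same 10 had an unadjusted p under 0.05, as did 71.2% of all probes. The ratios of both tissues were among the values that chose the members, so nothing is read from this count. The liver mean lay above the colon mean by 9.91 (SE 0.11) for *Cyp2a5*, 5.48 (SE 0.2) for *Cyp2e1*, 5.1 (SE 0.13) for *Cyp3a11*, 4.8 (SE 0.16) for *Cyp1a2*, 4.09 (SE 0.08) for *Nr1i3* and 3.88 (SE 0.1) for *Cyp2c29*. It lay above by 1.44 (SE 0.19) for *Cyp2b10*, 1.01 (SE 0.06) for *Por* and 0.72 (SE 0.1) for *Nr1i2*, the sensor that intestine shares with liver. In colon *Cyp2a5* and *Cyp2b10* were dim (log2 Cy3 signal 6.6 to 7.32 and 6.28 to 6.7), so the sizes for these genes are uncertain. *Nr1i2* ran from 0 to 1.02 in colon and from 0.41 to 2.29 in liver, so the tissues overlapped, whereas *Nr1i3* (-2.12 to -1.16 in colon and 1.54 to 2.84 in liver) did not. For *Cyp1a1* the difference was 0.46 (SE 0.55) and did not pass, with high mice present in both tissues. Of the other *Cyp1*, *Cyp2* and *Cyp3* genes 31 of 41 passed as higher in liver and 4 as lower. The HH *vs.* LH difference in liver minus that in colon was 0.74 (SE 0.28) for *Cyp2c29*, 1.15 (SE 0.57) for *Cyp2e1* and 0.82 for *Cyp1a1* (SE 1.57, too small for groups of such unlike spread). No member probe and 0% of all probes passed, with 1 member probe and 7.53% of all probes at an unadjusted p under 0.05.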

How the data were processed

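RNA of 24 livers and 24 colons was measured on Agilent 2-colour arrays (Cy3 mouse, Cy5 common reference, no dye swap), 4 arrays to a slide and 1 of each group. Per the file headers, Feature Extraction 10.10.1.1 wrote the deposited Cy3 and Cy5 intensities of 45018 spots, and per the labels the authors used limma in R 3.0.2. The deposited series table holds log2 ratios of reference over mouse, normalized by loess without background correction (r = 1 with that setting), and served as an alternative with its sign turned.

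Here limma 3.58.1 in R 4.3.3 corrected the median intensities by normexp (offset 50), where a local background brighter than its spot was replaced by the array's median background. Loess followed within each array, ratios were turned to mouse over reference, spots flagged as outliers were dropped, spots of a probe were averaged and the 2 arrays of 1 HH liver counted as 1 mouse. A linear model with 4 groups per tissue and empirical Bayes moderation gave differences, and probes with FDR under 0.05 and a fold over 1.5 were called. Liver over colon used all 8 groups. P-values set a difference against the spread between these mice, counted as independent because the labels do not give litters. Since dams were given the diet, the SE of comparisons between dam diets may be too small. The number of mice limits the precision.

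Probes were named through RefSeq accessions (GRCm38.p6), which gave 27050 of 41174 probes a symbol. A gene other than *Cyp1a2* was read on its brightest probe over all arrays, and for *Cyp1a2* the brighter probe led. Members, lists and tests were chosen with earlier results of these data known. In each list, genes that passed were to be named, or else the 3 of lowest p for HH *vs.* LH in liver. Other genes were named beside a mouse after its values were seen, and some genes are not reported here. Scripts were tested on simulated data. Alternatives were other background corrections, processed signals, the deposited table, median centring, Cy3 alone, the slide as a block, a filter on dim probes, other sets of samples, no fold minimum, and leaving out mice with *Xist* or each mouse in turn.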

Additional observations from a re-analysis of the deposited data

Results flagged for a closer look

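Of 80 sets of values (10 members in 8 groups), 7 held a mouse whose gap to its nearest neighbour was large for the range of the group. Chance gives about 1 in 20 for independent sets. These sets share mice and arrays, and ratios in single mice chose the members, so nothing is read from the count. In liver the flagged values were *Cyp2b10* in HL replicate 2 at 2.34 (others -2.5 to -1.02), *Nr1i3* in HH replicate 3 at 1.54 (others 2.7 to 2.83), *Nr1i3* in HL replicate 5 at 2.17 (others 2.6 to 2.84), *Nr1i2* in HH replicate 2 at 2.03 (others 0.74 to 1) and *Por* in LL replicate 3 at 1.29 (others 0.96 to 1.06). In colon they were *Cyp1a1* in LL replicate 6 at 2.55 (others -4.15 to -1.97) and *Cyp2e1* in LH replicate 2 at -4.67 (others -3.63 to -3.23). *Cyp1a1* in HH was not among them in either tissue, because its high mice were 2 of 5 livers and 3 of 6 colons. No member differed between liver and colon in its HH *vs.* LH difference, or in its offspring diet difference between dams, past the threshold of the test.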

How the results depend on the processing

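The number of member probes called stayed at 0 for all 6 diet comparisons in liver and in colon and for the difference between tissues, under each of the 35 to 57 alternatives run for a comparison, and lay between 9 and 10 for liver over colon. Replicates were numbered in accession order and the labels give no replicate number, but each number fell on 1 slide that held all 4 groups, so the slide, which the labels do give, was used as the replicate block, with the first array of the repeated HH liver. With it the count of member probes called also stayed at 0 in every diet comparison. Fitting only the groups compared could not be done for the dam, offspring and interaction values. With the local background left as deposited, the colon LH minus HH difference was -0.65 for *Cyp2a5*, -0.52 for *Cyp2b10* and -0.28 for *Cyp1a2*, against -0.04, 0.04 and 0.05. Without replacing the background, the spread of log2 ratios on an array was as low as 0.53 (SD over probes), against 0.787 or more with it. For *Nr1i2*, liver over colon was 0.1 with median centring and 0.72 with loess. In the same order it was 3.51 and 4.09 for *Nr1i3* and 0.69 and 1.01 for *Por*. With Agilent's processed signals liver over colon was 10.99 for *Cyp2a5*, 2.43 for *Cyp2b10* and 4.58 for *Nr1i3*, against 9.91, 1.44 and 4.09. *Cyp2c29* and *Cyp2e1* remained above HH in LH, HL and LL under every alternative, LH minus HH lying between 0.57 and 0.8 and between 0.57 and 1.02. The filter on dim probes left out *Cyp1a1* in colon.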
